A study of Sus scrofa with 48 samples.

Results

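Chemokines are small secreted proteins that attract leukocytes, and 8 of them were followed in the liver of growing pigs: CCL8, CCL2, CCL5, CXCL2, CXCL9, CXCL11, CXCL12 and CXCL16. CCL8 was chosen by its measured rise with the high-fat diet on these arrays, so its response to diet is described without a test. How the other 7 genes were chosen is not stated, but earlier results of these data were known when they were. Probes were assigned to a member when the scanner output names the gene or when their accession maps to it, which gave 21 of the 60305 probes of the array. Of these, 19 were distinct from background on 12 arrays or more and were tested among 45236 probes. Every one of the 8 genes had at least 1 tested probe, out of 11871 named genes that did.

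Liver RNA of 48 barrows was hybridized to single-dye Agilent porcine arrays, with 1 array per pig. All pigs were pure Large White animals of lines divergently selected over 8 generations for residual feed intake (RFI), the difference between what a pig eats and what its production is predicted to need. The 4 groups of 12 pigs were the low RFI line, which is the more efficient, and the high RFI line, each fed either a high-fat, high-fiber diet (HF) or a low-fat, low-fiber diet (LF) from 74 days of age, and all animals were killed 2 h after a meal. Fat and fiber changed together, so that their effects cannot be told apart, and each line is a single selection from the same breed without an unselected control.

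CC chemokines such as CCL2 and CCL8 mainly attract monocytes through receptors such as CCR2 and CCR1, and CCL5 attracts T cells, NK cells and monocytes. CXCL2 attracts neutrophils through CXCR2, whereas CXCL9 and CXCL11 are induced by interferon gamma and attract activated T cells and NK cells through CXCR3. CXCL12 is a homeostatic ligand of CXCR4 and ACKR3, and CXCL16 exists as a membrane-bound scavenger receptor and a shed ligand of CXCR6. In the liver, these proteins come from resident macrophages, sinusoidal endothelial cells, stellate cells, lymphocytes and hepatocytes.

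The probe sequences that bear on how the values can be read are shown as the scanner output gives them, written 5′ to 3′. The CCL8 probes A_72_P441594 and O12187 are complementary over 52 bases, which are in capitals, so that they would detect opposite strands. The CCL5 probe A_72_P115401 is shown as 1 of the probes that followed the CCL5 transcript.
CCL8 A_72_P441594: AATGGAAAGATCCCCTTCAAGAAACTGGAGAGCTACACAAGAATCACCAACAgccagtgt
CCL8 O12187: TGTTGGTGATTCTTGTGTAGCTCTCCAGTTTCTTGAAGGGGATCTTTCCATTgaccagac
CCL5 A_72_P115401: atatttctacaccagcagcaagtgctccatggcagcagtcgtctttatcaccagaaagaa
The probe O12187 was well above background on 5 of the 48 arrays and was not tested, whereas A_72_P441594 was well above background on 47. Likewise, the CXCL2 probe O8155, designed on a human accession, was well above background on 1 array and was not tested. The CCL2 probes A_72_P675364 and A_72_P412643 have the same 60 bases, and their values had r = 0.98 over the 48 arrays with an SD of the difference of 0.13 log2 units. They are therefore repeated measurements of 1 sequence and not independent evidence.

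Throughout, a level is the log2 of the background-subtracted intensity centred on the median of the array, and FC is the ratio of low RFI to high RFI pigs or of HF to LF diets. The 48 arrays had a median intensity of 53 to 126 in scanner units and between 65.8% and 77.2% of their probes well above background, and no array stood apart (median r with the others of 0.979 to 0.985). The 10 tested hepatocyte markers had a mean level of 9.45 to 10.11, which bears out the labelled tissue. Every slide held 2 arrays of each group, and each of the 2 scan days held 24 arrays. The pigs were penned individually, and P-values weigh a difference of group means against the spread between animals of a group. A probe counts as called where P was under 0.01 with an FC above 1.1 in either direction, and P-BH is the Benjamini-Hochberg adjusted P over all tested probes.

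For line, CCL5 was lower in low RFI than in high RFI pigs for 1 of its 3 probes. This was the only called member probe of 19, whereas 6.91% of all tested probes were called for the line effect and 3.49% of all tested probes were called lower in the low RFI line. CXCL2 and the 2 probes of CXCL16 that share a reference transcript were lower by 0.23 to 0.64 log2 units without passing the cut-offs. In all, 5 of the 19 probes had P under 0.05, beside 14.7% of all tested probes. Of the 19 probes, 16 had a lower mean in the low RFI line, with a median log2 FC of -0.11, while 52.5% of all tested probes had a higher mean there and the median over all probes was 0.005. Probes of the same gene are not independent. With 1 probe per gene, 2 of the 8 genes had a higher mean in the low RFI line, with a median log2 FC of -0.11. CXCL16 is 1 of these 2 through its brightest probe, A_72_P166536 (0.35), whereas its other 2 probes were lower (-0.23 and -0.27).

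With the HF diet, CCL8 was over-expressed by an FC of 1.47 to 1.76, which is the reason for its choice. None of the 17 probes of the other 7 genes was called, beside 4.61% of all tested probes. Both CXCL16 probes of the shared transcript had P under 0.05 (14.4% of all tested probes had), with values of 0.26 and 0.27 log2 units. Of these 17 probes, 14 had a higher mean with the HF diet, beside 44.8% of all tested probes. With the brightest probe per gene, only CXCL2 of these 7 genes had a lower mean with the HF diet. Within the low RFI and the high RFI line, 0 of the 17 were called and 0 had P under 0.05, where 2.68% and 1.58% of all tested probes were called.

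**Figure D1:**
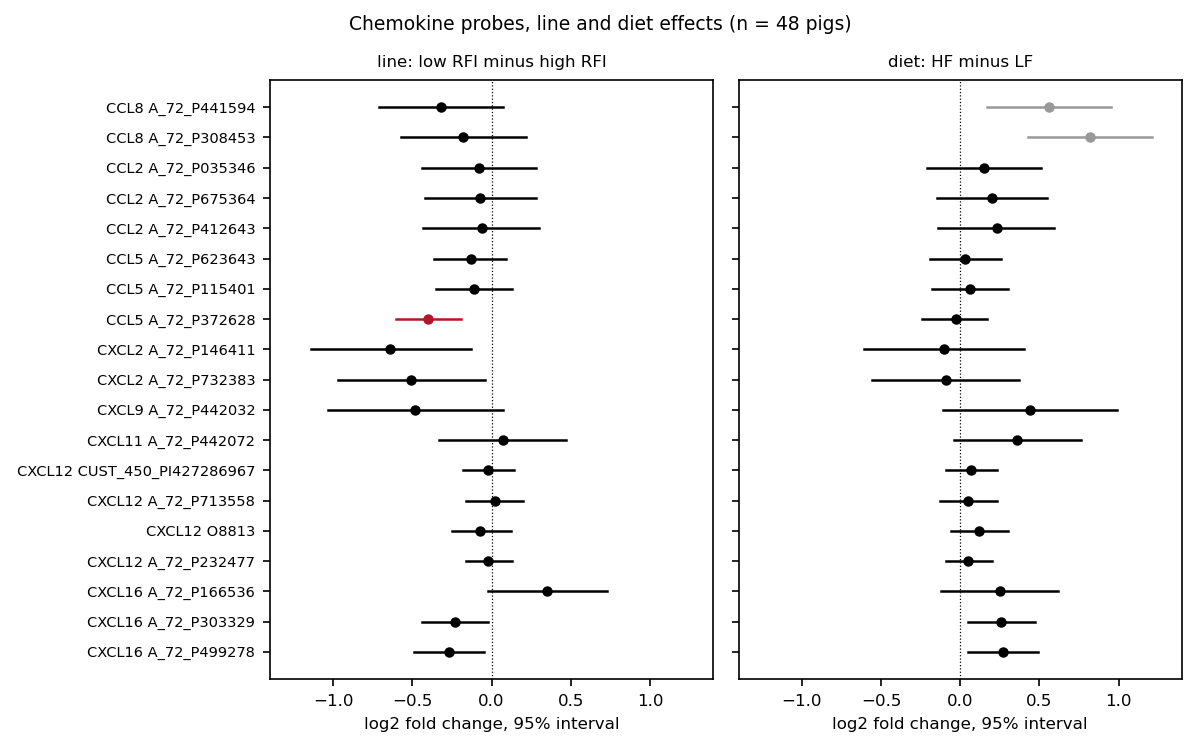
Log2 fold changes of the 19 tested probes of the 8 chemokines for line (left, low RFI minus high RFI) and diet (right, HF minus LF), with 95% intervals from the moderated fit over 48 pigs. Red marks the only called probe, CCL5 A_72_P372628 at -0.40 for line, and grey marks the CCL8 diet differences, which chose the gene and were not tested.

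CCL8, also called monocyte chemoattractant protein 2, was read by 2 tested probes without a common stretch longer than 5 bases, and their values had r = 0.91 over the 48 pigs. At A_72_P308453, the level in low RFI pigs ranged from -2.17 to -0.22 with a median of -1.14 with the HF diet, and from -3.24 to 0.19 with a median of -2.58 with the LF diet. In high RFI pigs it ranged from -2.13 to -0.54 with a median of -1.30 with the HF diet, and from -3.35 to -1.26 with a median of -1.48 with the LF diet. The diets overlapped in both lines, but 23 of the 24 pigs fed the LF diet were below the median of the HF pigs, and 22 of the 24 HF pigs were above the median of the LF pigs.

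The same order was seen at A_72_P441594 for the diets, where the medians were -1.36 over 24 HF pigs and -1.85 over 24 LF pigs. The separation was weaker there: 17 of 24 LF pigs were below the HF median, and 19 of 24 HF pigs were above the LF median. The log2 FC for diet was 0.56 (SE 0.19) at A_72_P441594 and 0.82 (SE 0.19) at A_72_P308453. Within the low RFI line the 2 values were 0.77 (SE 0.28) and 1.08 (SE 0.28), and within the high RFI line they were 0.34 (SE 0.28) and 0.56 (SE 0.28). By group means at A_72_P308453, the order was HF low RFI (-1.17 ± 0.57, SD, n = 12), HF high RFI (-1.26 ± 0.56), LF high RFI (-1.82 ± 0.69) and LF low RFI (-2.26 ± 0.90). Neighbours in this order differed by at most 0.56 and overlapped. At A_72_P441594 the 2 HF groups stood the other way round, with means of -1.28 in high RFI and -1.39 in low RFI pigs.

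The larger diet difference in the low RFI line was not called: the interaction was 0.43 (SE 0.39, 95% interval -0.36 to 1.21, P = 0.281, limma P-BH = 1) at A_72_P441594 and 0.53 (SE 0.39, 95% interval -0.26 to 1.31, P = 0.183, limma P-BH = 1) at A_72_P308453. No member probe was called for the interaction by limma and 0 had P under 0.05, beside 0.376% and 2.37% of all tested probes. The line effect on CCL8 was -0.32 (SE 0.19, P = 0.11, limma P-BH = 0.498) and -0.18 (SE 0.19, P = 0.372, limma P-BH = 0.78) for the same probes, and it was 0.01 at A_72_P308453 on the second scan day alone. LF low RFI replicate 11 had levels of 0.43 and 0.19, the highest of the 48 pigs at both probes, and without it the line effect at A_72_P441594 was -0.43 with P = 0.00981, past both cut-offs (limma P-BH = 0.137). Without the same pig the interactions were 0.66 (P = 0.0463) and 0.75 (P = 0.0286), not past the cut-off, and the diet differences were 0.68 and 0.93.

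The CCL8 probes were dim, with a geometric mean intensity of 65.9 and 65.4 scanner units, and the size of the diet difference moved with the treatment of the background. The values were 0.31 and 0.47 in the table of log2 values that the authors deposited, in which no background was subtracted, and 0.21 and 0.34 with the normexp correction. On the first scan day they were 0.77 and 0.95, and on the second 0.35 and 0.69. The direction was the same in each of these settings, which all use the arrays on which CCL8 was chosen for this rise.

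**Figure D2:**
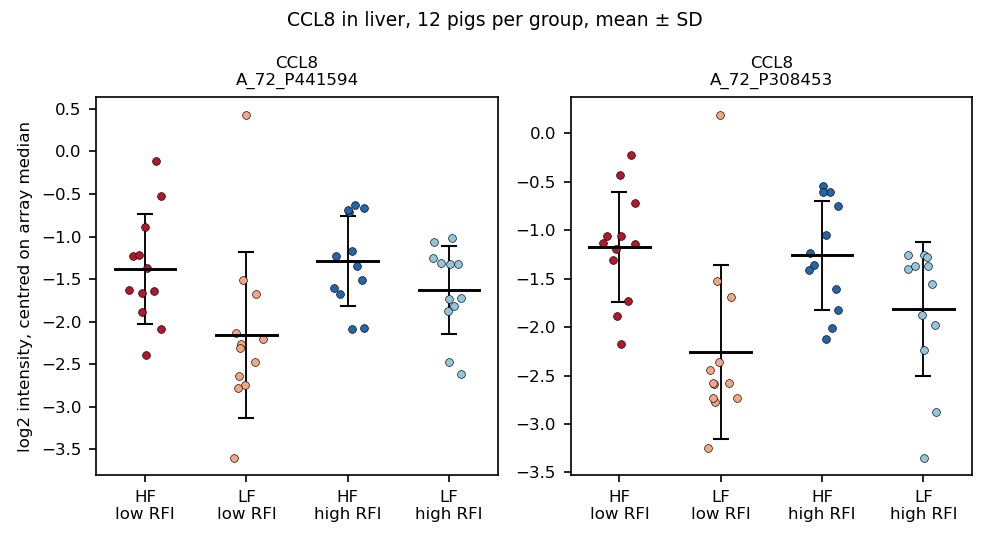
CCL8 level (log2 intensity centred on the array median) at its 2 tested probes in the 4 groups of 12 pigs, with 1 point per pig and the mean ± SD. At A_72_P308453, 23 of 24 LF pigs sit below the median of the HF pigs, and at A_72_P441594 17 of 24 do. The groups overlap, and LF low RFI replicate 11 is the highest pig at both probes (0.43 and 0.19).

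In whole liver, more cells of a type cannot be told apart from more RNA per cell. Macrophage markers include CD163, a scavenger receptor of hemoglobin, and the complement subunits C1QA, C1QB and C1QC. For diet, 0 of 13 tested macrophage markers were called, beside 6.04% of all named genes. Of the 13 markers, 10 were higher with the HF diet, beside 44.8% of all tested probes. The median log2 FC of the markers was 0.12, beside -0.014 over all probes. Their mean level per pig ranged from 3.32 to 4.03 in HF and from 3.06 to 4.09 in LF pigs. The part of macrophage number in the CCL8 values was not tested. After removal of the group means, the genes most like CCL8 over 48 pigs among 10079 named genes were SLC2A6, a member of the glucose transporter family, with r = 0.60, and SLA-DMB and CD74, which act in peptide loading of class II histocompatibility molecules, both with r = 0.59. The next genes were AIF1, a macrophage marker, and CD40, a receptor of antigen-presenting cells, both with r = 0.59.

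CCL2 (monocyte chemoattractant protein 1) is separated from CCL8 by a single coding gene, CCL11, in the pig assembly Sscrofa11.1. At its brightest probe, A_72_P035346, CCL2 ranged from 0.64 to 3.05 (median 1.71) in HF low RFI, from 0.49 to 2.78 (median 1.60) in LF low RFI, from 1.05 to 2.70 (median 1.57) in HF high RFI and from 0.85 to 2.94 (median 1.53) in LF high RFI pigs. The 4 groups covered almost the same range. The diet effect was 0.15 (SE 0.18, 95% interval -0.21 to 0.51, P = 0.418, limma P-BH = 0.749), and the other probes gave 0.20 and 0.23. The line effect was -0.08 (SE 0.18, 95% interval -0.44 to 0.28, P = 0.653, limma P-BH = 0.918). CCL2 and CCL8 had r = 0 over the deviations of 48 pigs from their group means (Spearman rho = -0.03, permutation P = 0.99 and 0.82).

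CCL5, or RANTES, was read by 3 probes that did not give the same picture. The pair designed on the reference transcript had r = 0.96 between them. The remaining probe, A_72_P372628, was designed from position 2012 of a longer cDNA, and had r = 0.59 and 0.55 with the others. At A_72_P372628, low RFI pigs ranged from -1.25 to 0.25 with a median of -0.52, and high RFI pigs from -0.90 to 0.62 with a median of -0.03 (n = 24 each). Thus, 21 of 24 low RFI pigs lay under the high RFI median, and 22 of 24 high RFI pigs were above the median of the low RFI line. The log2 FC was -0.40 (SE 0.10, FC 0.759, P = 0.000352, limma P-BH = 0.0154). It was called whichever pig was left out (-0.43 to -0.36).

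For the pair on the reference transcript, low RFI pigs ranged from 3.27 to 5.10 (median 3.92) and high RFI pigs from 3.50 to 4.72 (median 4.16) at A_72_P623643, so that the low RFI line held both the lowest and the highest pig. The line effect was -0.13 (SE 0.11, 95% interval -0.36 to 0.09, P = 0.248, limma P-BH = 0.683) there and -0.11 (SE 0.12, 95% interval -0.35 to 0.13, P = 0.363, limma P-BH = 0.774) at A_72_P115401. Whether A_72_P372628 differs from these in its line effect was not tested. Within diets, A_72_P372628 was called with the HF diet (-0.44, SE 0.15, P = 0.00397, limma P-BH = 0.19, beside 3.41% of all tested probes) and not with the LF diet (-0.35, SE 0.15, P = 0.0194, limma P-BH = 0.349), where 0 of the 19 member probes and 3.84% of all probes were called. The interaction was -0.09 (SE 0.21, P = 0.669, limma P-BH = 1). By scan day, the line effect was -0.56 (SE 0.13, P = 0.000307, limma P-BH = 0.0384) on the first and -0.24 (SE 0.14, P = 0.116, limma P-BH = 0.663) on the second. With respect to diet, the 3 probes gave 0.03, 0.06 and -0.03, and the widest 95% interval ran from -0.18 to 0.30. For A_72_P372628 the diet value changed sign between the scan days (-0.26 and 0.19).

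Among all named genes, 9.59% had a called probe for line, 4.78% a higher and 4.93% a lower one, and 6.04% had one for diet, 2.81% higher and 3.23% lower. For the gene lists, the value given is that of the called probe with the smallest P. The T and NK markers had 2 of 18 tested genes called for line, a share near that of all named genes, both lower in low RFI pigs: CD247, the zeta chain of the T cell receptor complex (log2 FC -0.39, SE 0.10, P = 0.000299, limma P-BH = 0.0137), and GZMH, a granzyme of cytotoxic lymphocytes (-0.59, SE 0.13, P = 5.69e-05, limma P-BH = 0.00405). The median over the list was -0.11 for line. For diet, CD247 was the only called gene of the 18, higher with HF (0.46, SE 0.09, P = 3.6e-06, limma P-BH = 0.0124). The mean level of these 18 genes per pig ranged from -0.44 to 0.78 in low RFI and from -0.33 to 0.81 in high RFI pigs. Over the 48 deviations from group means, this mean level had r = 0.76 with CCL5 at A_72_P623643. The part of T and NK cells in the CCL5 values was not tested. The genes most like CCL5 were CST7, an inhibitor of cathepsins in cytotoxic cells (r = 0.81), FCGR3A, an Fc receptor of NK cells and monocytes (r = 0.78), and SKAP1, an adaptor of the T cell receptor (r = 0.78). For A_72_P372628, they were ARRB2 (r = 0.71) and CST7 (r = 0.67), looked up after the probe had been seen to differ.

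**Figure D3:**
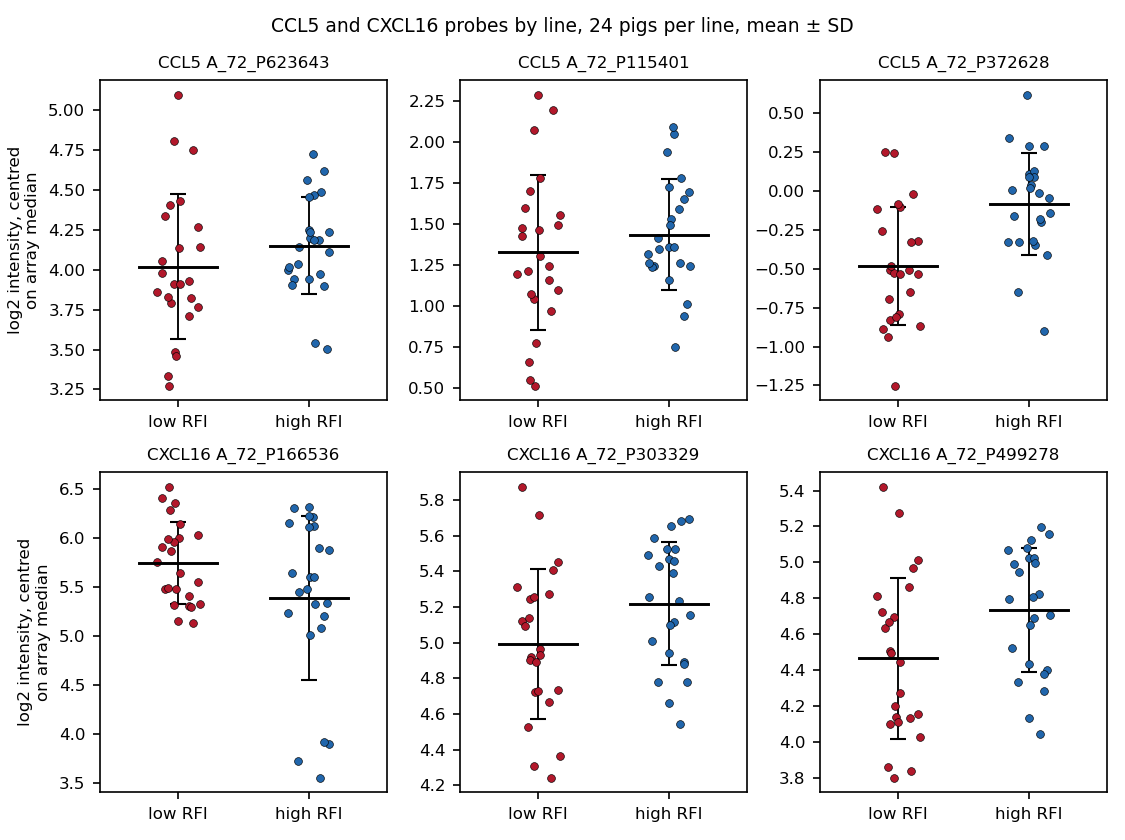
Levels of the 3 CCL5 probes (top) and the 3 CXCL16 probes (bottom) by line, with 1 point per pig (24 per line), the mean and SD, and its own vertical scale in each panel. CCL5 A_72_P372628 is lower in the low RFI line (means -0.48 and -0.08), and 4 pigs of the high RFI line lie at or below 3.92 at CXCL16 A_72_P166536.

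CXCL2, a neutrophil chemoattractant, was lower in low RFI pigs on average. At A_72_P146411, low RFI pigs ranged from -3.19 to -0.52 (median -1.52) and high RFI pigs from -2.06 to 3.03 (median -1.19). The lines overlapped, with 19 of 24 low RFI pigs under the high RFI median. The line effect was -0.64 (SE 0.25, P = 0.0144, limma P-BH = 0.175) there and -0.51 (SE 0.23, P = 0.0329, limma P-BH = 0.275) at A_72_P732383, which shares 29 bases with it. Neither passed the cut-offs. Both probes were dim, with a geometric mean intensity of 82.3 and 41.5 scanner units. Over the alternative settings, their line values ran from -0.73 to -0.42 and from -0.59 to -0.26.

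The pig LF high RFI replicate 10 had by far the highest CXCL2, at 3.03 and 1.78 on the 2 probes, and the next pig was lower by 2.98 and 2.93 log2 units. Without it, the line effects were -0.46 and -0.34, the smallest of all removals. The removal of any of 6 other pigs (HF low RFI replicate 10, HF high RFI replicate 7, and LF high RFI replicates 1, 5, 7 and 9) brought A_72_P146411 past the cut-offs, with P as low as 0.00854 and limma P-BH = 0.13. Diet left CXCL2 at -0.10 (SE 0.25, 95% interval -0.61 to 0.40, P = 0.683, limma P-BH = 0.889), and without LF high RFI replicate 10 it was 0.08. CXCR2, the receptor of CXCL2 on neutrophils, was under-expressed in the low RFI line (log2 FC -0.20, SE 0.07, P = 0.00665, limma P-BH = 0.11). Of 8 neutrophil and monocyte markers, 0 were called for line, beside 9.59% of all named genes.

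CXCL9 and CXCL11 belong to the interferon-induced ligands of CXCR3, and in Sscrofa11.1 they lie around ART3 and CXCL10. CXCL9 spread widely between pigs, with a group SD of 0.88 to 1.06. In low RFI pigs it ranged from 0.65 to 3.65 (median 1.87) with the HF diet and from 0.33 to 3.28 (median 0.94) with the LF diet. In high RFI pigs it ranged from 0.87 to 3.71 (median 1.95) with the HF diet and from 0.36 to 3.81 (median 1.53) with the LF diet. The groups overlapped almost fully, and the 7 pigs at or above 3.18 came from all 4 groups. The diet effect was 0.44 (SE 0.27, 95% interval -0.11 to 0.99, P = 0.117, limma P-BH = 0.467) and the line effect -0.48 (SE 0.27, 95% interval -1.03 to 0.07, P = 0.0842, limma P-BH = 0.442).

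CXCL11 had medians of -0.91 and -1.37 in low RFI pigs with the HF and LF diets, and of -1.24 and -1.74 in high RFI pigs. The ranges were -2.30 to -0.10, -3.81 to -0.40, -1.69 to -0.13 and -2.06 to -0.40 in the same order, so that the diets overlapped. The diet effect was 0.36 (SE 0.20, 95% interval -0.04 to 0.76, P = 0.0737, limma P-BH = 0.398), with 18 of 24 HF pigs above the median of the LF pigs, and the line effect was 0.07 (SE 0.20, P = 0.73, limma P-BH = 0.94). The lowest pig, LF low RFI replicate 10, was 1.51 log2 units under the next, and without it the diet effect was 0.25 (P = 0.146). The CXCL11 probe was dim (geometric mean intensity 85.5 scanner units), and its diet effect ran from 0.15 to 0.57 over the alternative settings.

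CXCL10, the neighbour of both genes and the remaining CXCR3 ligand, ranged from 4.26 to 6.45 and from 3.39 to 6.07 in low RFI pigs with the HF and LF diets, and from 4.36 to 7.07 and from 4.33 to 6.22 in high RFI pigs. Its line effect was -0.50 (SE 0.22, P = 0.0271, limma P-BH = 0.247) and its diet effect 0.31 (SE 0.22, P = 0.166, limma P-BH = 0.528). The receptor CXCR3 had a line effect of 0.10 (SE 0.04, P = 0.0142, limma P-BH = 0.173) and a diet effect of 0 (SE 0.04, P = 0.995, limma P-BH = 0.998).

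For the genes of the interferon response, 0 of 33 tested genes were called for diet, beside 6.04% of all named genes with at least 1 called probe. Their median log2 FC was 0.26, and 29 of 33 were higher with the HF diet, beside a median of -0.014 over all probes. The largest were OAS1 at 1.28 (SE 0.64) and ISG15 at 0.98 (SE 0.56), with P = 0.0512 and 0.0882 (limma P-BH = 0.349 and 0.424). For line, 1 gene was higher and 3 were lower in the low RFI line, beside 9.59% of named genes called. JAK2, a kinase of the interferon gamma receptor, was over-expressed (0.25, SE 0.06, P = 0.000178, limma P-BH = 0.00936). IFNGR1, the ligand-binding chain of that receptor (-0.24, SE 0.07, P = 0.00151, limma P-BH = 0.042), IRF1, a transcription factor induced by it (-0.34, SE 0.11, P = 0.00388, limma P-BH = 0.0779), and PSMB8, a subunit of the immunoproteasome (-0.63, SE 0.23, P = 0.00928, limma P-BH = 0.134), were under-expressed. JAK2 was called on 2 of 3 probes. IFNGR1 was called on 1 of 5 and IRF1 on 1 of 3, the brightest in each case.

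The genes most like CXCL9 were the interferon-induced GTPases GBP2 and GBP1 (r = 0.86 and 0.84 over 48 deviations) and LAG3, an inhibitory receptor of activated T cells (r = 0.82). CXCL10 was the eighth at r = 0.72. CXCL11 had no gene above r = 0.50, the value for RUNX2, a transcription factor, SNRPN, a splicing protein, and SLC35B4, a nucleotide sugar transporter.

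**Figure D4:**
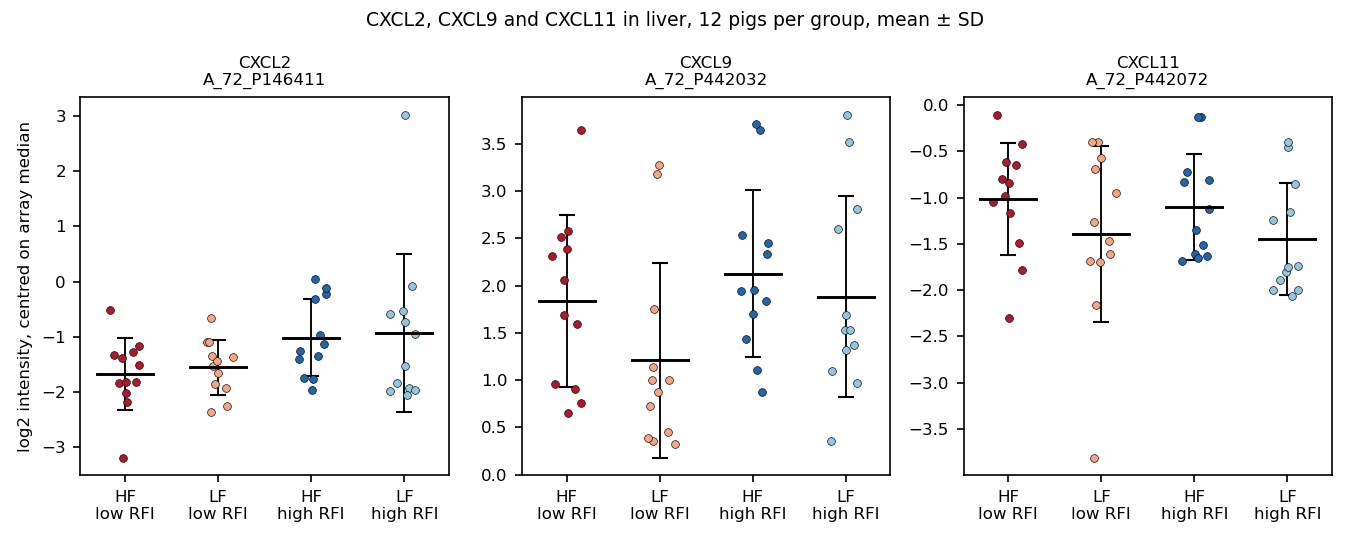
Levels of CXCL2, CXCL9 and CXCL11 (log2 intensity centred on the array median) in the 4 groups of 12 pigs, with 1 point per pig, the mean and SD. LF high RFI replicate 10 stands at 3.03 for CXCL2, CXCL9 spreads widely in every group, and LF low RFI replicate 10 is the lowest pig for CXCL11 (-3.81).

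CXCL12, which retains CXCR4-bearing cells in tissues, varied little between pigs. At its brightest probe, CUST_450_PI427286967, the lowest and highest pigs were at 5.71 and 6.81, the group medians lay between 6.25 and 6.45, and the group SD was 0.26 to 0.30. The 4 probes gave line effects of -0.07 to 0.02 and diet effects of 0.05 to 0.12. The 95% intervals reached no further than -0.25 and 0.20 for line and no further than -0.13 and 0.30 for diet. The probes had r = 0.47 to 0.91 with each other, and at the brightest the sign of the line value turned on the second scan day (0.09) and that of the diet value on the first (-0.03).

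Among its receptors, ACKR3, a scavenger of CXCL12 and CXCL11, was under-expressed with the HF diet (log2 FC -0.71, SE 0.22, P = 0.00269, limma P-BH = 0.127). A second probe that carries its former name CXCR7 gave -0.45 (SE 0.19, P = 0.0214, limma P-BH = 0.258), and both are reported because they were listed under separate names. CXCR4 had a diet effect of -0.29 (SE 0.12, P = 0.0199, limma P-BH = 0.251) and a line effect of -0.02 (SE 0.12, P = 0.843, limma P-BH = 0.972). The genes most like CXCL12 were POMC (r = 0.54), the precursor of melanocortins, CLEC4G, a lectin of sinusoidal endothelial cells (r = 0.50), and WNT2, a ligand of the Wnt pathway (r = 0.47).

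CXCL16 is listed under its own name for A_72_P166536 and as SR-PSOX, its name as a scavenger receptor, for A_72_P303329 and A_72_P499278. The SR-PSOX probes had r = 0.97 with each other and r = 0.26 and 0.19 with A_72_P166536. At A_72_P303329, HF pigs ranged from 4.31 to 5.87 (median 5.28) and LF pigs from 4.24 to 5.53 (median 4.93). The diets overlapped, and 20 of 24 LF pigs were below the median of the HF pigs. The diet effect was 0.26 (SE 0.10, 95% interval 0.05 to 0.47, P = 0.0181, limma P-BH = 0.244) there and 0.27 (SE 0.11, 95% interval 0.05 to 0.49, P = 0.0175, limma P-BH = 0.242) at A_72_P499278. With slide as a block A_72_P303329 was called for diet (0.26, SE 0.09, P = 0.00959, limma P-BH = 0.176), and with the normexp correction A_72_P499278 was (0.30, P = 0.00765, limma P-BH = 0.148).

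The line effect was -0.23 (SE 0.10, P = 0.0352, limma P-BH = 0.284) and -0.27 (SE 0.11, P = 0.0172, limma P-BH = 0.193) for the SR-PSOX probes, lower in the low RFI line, and A_72_P499278 was called with the deposited log2 values (-0.29, P = 0.00985). Single pigs decided these calls. Without HF low RFI replicate 8 both SR-PSOX probes were called for diet (0.29 and 0.30, P = 0.0056 and 0.00608, limma P-BH = 0.158 and 0.163), and without HF high RFI replicate 12 A_72_P303329 was called too. For line, A_72_P499278 was called without any of 4 pigs (HF low RFI replicates 1 and 3, LF low RFI replicate 9, LF high RFI replicate 12), with P as low as 0.00524 (limma P-BH = 0.0957).

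In the opposite direction, A_72_P166536 was higher in the low RFI line by 0.35 (SE 0.19, 95% interval -0.02 to 0.73, P = 0.0622, limma P-BH = 0.381). Its values fell into separate ranges: 44 pigs were at or above 5.01, whereas 4 pigs were at or below 3.92. Of the 4 low pigs, 1 was HF high RFI and 3 were LF high RFI, and 2 had been scanned on each day. The line effect at this probe was 0.63 (P = 0.0165, limma P-BH = 0.323) on the first scan day and 0.08 (P = 0.763, limma P-BH = 0.973) on the second. The mean over the 3 CXCL16 probes gave a line value of -0.05 (SE 0.11). The genes most like A_72_P166536 were ITIH2, a heavy chain of the inter-alpha-trypsin inhibitor (r = 0.77, and 0.69 over the 44 pigs without the 4 low ones), AKR1CL1, an aldo-keto reductase (r = 0.64), and CYP4F2, a fatty acid hydroxylase (r = 0.58). For A_72_P303329, looked up after this difference had been seen, they were VPS18, a subunit of endosomal tethering complexes (r = 0.64), ARSA, a lysosomal sulfatase (r = 0.61), and GPRC5B (r = 0.59). Whether A_72_P166536 reads the same transcript cannot be settled from the array.

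CXCR6, the receptor of CXCL16 on T and NK cells, was under-expressed in the low RFI line on both of its probes (log2 FC -0.34, SE 0.11, P = 0.00473, limma P-BH = 0.0885 at the brighter). CCR1, a receptor of CCL5 and CCL8, was under-expressed on 1 of 2 tested probes (-0.45, SE 0.09, P = 1.43e-05, limma P-BH = 0.00151), and the brighter gave -0.22 (P = 0.0176, limma P-BH = 0.196). In all, 3 of 20 tested receptor genes were called lower and 0 higher for line, beside 4.93% and 4.78% of all named genes, with a median of -0.02. The 20 count ACKR3 and CXCR7, and also ACKR1 and DARC, as separate genes, although each pair is 2 names of 1 gene. For diet, 2 were called lower, beside 3.23%: ACKR3 and XCR1, the receptor of XCL1 (-0.27, SE 0.09, P = 0.00269, limma P-BH = 0.127). CCR2, the receptor of CCL2, had a line effect of -0.09 (P = 0.236, limma P-BH = 0.672) and a diet effect of 0.06 (P = 0.43, limma P-BH = 0.757).

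Of the 19 other ligands tested, 3 were called higher and 3 lower for line, beside 4.78% and 4.93% of all named genes, with a median of 0.01. CCL14, a ligand of CCR1, was under-expressed in low RFI pigs (-0.70, SE 0.11, P = 3.6e-08, limma P-BH = 2.09e-05), as were CCL25, a ligand of CCR9 (-0.15, SE 0.05, P = 0.00571, limma P-BH = 0.0998), and CCL28, a mucosal chemokine (-0.55, SE 0.19, P = 0.00534, limma P-BH = 0.096). CCL3L1, a macrophage inflammatory protein (0.54, SE 0.08, P = 7.45e-08, limma P-BH = 3.71e-05), XCL1 (0.37, SE 0.11, P = 0.000935, limma P-BH = 0.0303) and CXCL14 (0.38, SE 0.13, P = 0.00554, limma P-BH = 0.0981) were over-expressed. CCL14 and CXCL14 were called on 1 of 3 probes, CCL25, CCL28 and CCL3L1 on 1 of 2, and XCL1 on 2 of 3. The brightest CXCL14 probe gave 0.29 (P = 0.0222, limma P-BH = 0.222), whereas the value given for each of the other ligands is from its brightest probe. With the HF diet, 2 were called higher and 1 lower, beside 2.81% and 3.23% of all named genes. Those higher were XCL1 (0.29, SE 0.10, P = 0.00617, limma P-BH = 0.166) and CCL14 on another of its probes (0.30, SE 0.10, P = 0.00368, limma P-BH = 0.139), whose brightest gave -0.05. XCL1 was called for diet on 1 of 3 probes, and its brightest gave 0.27 (P = 0.0141, limma P-BH = 0.227). IL8, a neutrophil chemokine, was called lower (-0.18, SE 0.07, P = 0.00817, limma P-BH = 0.184).

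Among the genes of chemokine processing and signalling, 3 of 16 tested were called lower for line, beside 4.93% of all named genes: ADAM17, a protease that sheds membrane proteins, on 2 of 5 probes (-0.21, SE 0.06, P = 0.00183, limma P-BH = 0.0476), ARRB2, an arrestin of these receptors (-0.31, SE 0.09, P = 0.000842, limma P-BH = 0.0283), and PIK3CG, a kinase downstream of them (-0.34, SE 0.11, P = 0.00355, limma P-BH = 0.0734). ARRB2 was called on 1 of 3 probes, and its brightest gave -0.17 (P = 0.0164, limma P-BH = 0.188). PIK3CG was called for line on 1 of 2 probes. The 16 genes count GRK2 and ADRBK1 separately, although they are 2 names of 1 gene. For diet, PIK3CG was over-expressed with HF (0.38, SE 0.11, P = 0.00103, limma P-BH = 0.0904) and ADAM17 was lower on 1 probe (-0.19, SE 0.06, P = 0.00476, limma P-BH = 0.151). The brightest ADAM17 probe gave 0.10 for line (P = 0.572, limma P-BH = 0.889) and -0.04 for diet (P = 0.834, limma P-BH = 0.949), so that the line values of its probes differ in sign. Among 27 genes linked to inflammation and the NF-kB pathway, 2 were higher and 3 lower for line, beside 4.78% and 4.93% of all named genes. These were TRAF6, an adaptor of Toll-like receptors (0.97, SE 0.19, P = 5.12e-06, limma P-BH = 0.000763), the receptor TNFRSF1A (0.16, SE 0.05, P = 0.00505, limma P-BH = 0.0928), the cytokine IL10 (-0.42, SE 0.10, P = 0.000136, limma P-BH = 0.00761), CD40 (-0.27, SE 0.09, P = 0.00305, limma P-BH = 0.0662) and IKBKB, a kinase of the NF-kB pathway (-0.40, SE 0.14, P = 0.0083, limma P-BH = 0.125). TNFRSF1A and IKBKB were each called on 1 of 4 probes, and their brightest probes gave -0.03 (P = 0.492, limma P-BH = 0.85) and -0.04 (P = 0.458, limma P-BH = 0.831). With the HF diet, IL10 (0.36, SE 0.10, P = 0.000795, limma P-BH = 0.0808) and the adhesion molecule ICAM1 (0.23, SE 0.08, P = 0.00506, limma P-BH = 0.154) were over-expressed, with 25 genes not called. Among all named genes, 2.81% were called higher for diet.

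For line, 3 of 13 macrophage markers were called lower in the low RFI line, beside 4.93% of all named genes, with a median of -0.18: C1QA (-0.28, SE 0.09, P = 0.00205, limma P-BH = 0.0514), VSIG4, a complement receptor of Kupffer cells (-0.24, SE 0.08, P = 0.0025, limma P-BH = 0.0589), and AIF1 (-0.22, SE 0.08, P = 0.00666, limma P-BH = 0.11). Endothelial markers had 0 of 11 genes called for either effect, beside 9.59% of all named genes for line and 6.04% for diet. The part of any of these cells in the line values of the chemokines was not tested.

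Deviations of the 48 pigs from their group means were compared between the 8 members, with 1 probe per gene, in 28 pairs. The probe for CXCL16 was A_72_P166536, which differs from its other 2 probes. After Benjamini-Hochberg adjustment, 4 pairs passed 5% by Pearson's r and all 4 were positive. CCL2 and CXCL2, on different chromosomes, had r = 0.61 and rho = 0.58 (permutation P = 1e-05, the smallest that the 1e+05 resamples can give, and 4e-05, adjusted 0.00028 and 0.0011). The value was r = 0.51 and 0.66 on the 2 scan days and 0.58 without the 2 pigs farthest from the median.

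CCL8, CCL5 and CXCL9 formed the other 3 pairs. CCL8 and CCL5 had r = 0.53 and rho = 0.45 (permutation P = 0.00086 and 0.002, adjusted 0.006 and 0.027), with r = 0.22 on the first and 0.75 on the second scan day, and 0.43 without the 2 farthest pigs. CCL5 and CXCL9 had r = 0.50 and rho = 0.37 (permutation P = 0.00074 and 0.013, adjusted 0.006 and 0.094), with r = 0.56 and 0.48 by scan day and 0.34 without the 2 farthest. CCL8 and CXCL9 had r = 0.49 and rho = 0.40 (permutation P = 0.00072 and 0.0059, adjusted 0.006 and 0.055), with r = 0.38 and 0.61 by scan day and 0.37 without the 2 farthest. By rho, only CCL2 with CXCL2 and CCL8 with CCL5 passed 5% after adjustment. The pig LF low RFI replicate 11, with the highest CCL8, also had the highest CCL5 at A_72_P623643 (5.10).

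The genes most like CCL2 were CYR61, a secreted matrix protein (r = 0.70), and the immediate early transcription factors EGR1 and FOS (r = 0.69 and 0.65). The genes most like CXCL2 were NFKBIZ, an inducible regulator of NF-kB (r = 0.74), CYR61 (r = 0.72) and RND1, a small GTPase (r = 0.70), with EGR1 and FOS at 0.66. Thus, CYR61, EGR1 and FOS stood among the 5 genes nearest to both. The pig LF high RFI replicate 10, highest for CXCL2, was also the highest of its group for CCL2 (2.94). CXCL12 and CXCL16 had no pair past 5%, and their largest r, 0.26, was between them (rho = 0.12, permutation P = 0.098 and 0.42, adjusted 0.33 and 0.86).

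**Figure D5:**
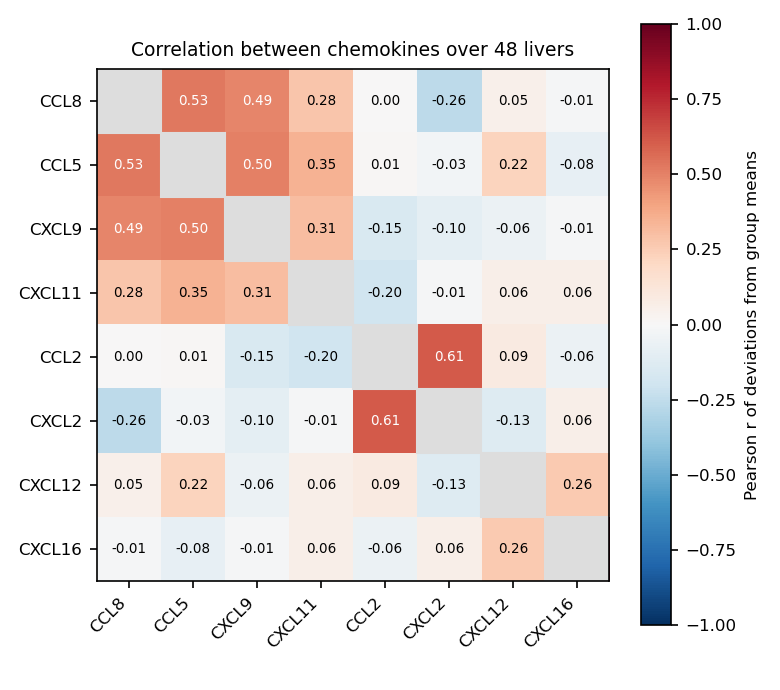
Pearson r between the 8 chemokines over 48 livers, computed on deviations from the means of the 4 groups with 1 probe per gene. CCL2 with CXCL2 (0.61) and the pairs among CCL8, CCL5 and CXCL9 (0.49 to 0.53) were the 4 pairs past an adjusted P of 5%.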

How the data were processed

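For each liver array, the authors deposited scanner output of Feature Extraction 10.7.3.1, whose intensity values per spot are background-subtracted and not normalized between arrays. A second deposited file holds log2 values, which equal the log2 median intensity without background subtraction minus a constant per array; the authors worked in R 2.10.0, per the labels. From the intensity values, control spots were removed, 483 outlier spots were set missing and 0 were saturated. After log2 transformation, the median over the tested probes of an array was subtracted. The filter kept probes flagged as well above background by the scanner software on 12 arrays or more. The number of arrays and, for dim probes, the signal over background limit precision. No column of other samples was left aside (0).

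A model with the 4 groups was fitted to all 45236 probes with limma 3.58.1 in R 4.3.3, and contrasts gave line, diet, interaction and the effects within lines and diets. It was tested on simulated data. Correlations used 1e+05 permutations within groups, and fewer where the pairs were recomputed under other settings.

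The members and the gene lists were chosen with earlier results of these data known. All members were described, with the brightest probe standing for a gene. From the other lists, genes with a called probe were named, up to 6 per list and effect, along with receptors of the members (1 of them is not reported here), CXCL10 and, for each member, the 3 genes with the highest r. CD40 and AIF1 beside CCL8, the marker genes named without a call, and the second lookups for CCL5 and CXCL16 were added after values were seen. Symbols came from the scanner output or, by accession, from the Sscrofa11.1 table, and 32928 probes have none. Alternatives were an ANOVA without moderation, 75th percentile centring, quantile normalization, normexp (offset 50), the deposited log2 values, other filters, outlier spots kept, slide or scan day as a block, each scan day alone and the mean over the probes of a gene. Leaving out each pig was added after the data were seen.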

Additional observations from a re-analysis of the deposited data

How the results depend on the processing

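The fit was repeated under each planned setting. The count of called chemokine probes for line, 1 in the reported fit, was 2 with the deposited log2 values (CXCL16 A_72_P499278 was added, P = 0.00985) and 0 with the second scan day alone. For diet, without CCL8, the count of 0 became 1 with the normexp correction (CXCL16 A_72_P499278, P = 0.00765) and 1 with slide as a block (CXCL16 A_72_P303329, P = 0.00959). For line with the HF diet, the count of 1 was 0 with the second scan day alone. The counts for the interaction, for line with the LF diet and for diet within each line were 0 in all settings. Leaving out each pig in turn, an alternative chosen after seeing the data, gave 1 to 2 called probes for line, 0 to 2 for diet and 0 for the interaction. CCL5 A_72_P372628 was called for line in each setting but the second scan day. The correlated pairs, recomputed with quantile normalization, the deposited values, the mean over probes and slide means removed, numbered 4 in each, and 5 with normexp. Signs turned for 15 values, none of them called: the CXCL2 interaction with normexp (0.09 and 0.14), with the deposited values (0.07 and 0.14) and on the second scan day (0.36 and 0.42), the CXCL11 and CXCL16 A_72_P303329 interactions on the first scan day (-0.39 and 0.24), the CXCL12 diet value on the first (-0.03) and its line value on the second scan day (0.09), CCL8 A_72_P308453 (0.01) and CCL2 (0) for line and CCL5 A_72_P372628 for diet (0.19) on the second scan day, and, averaged over probes, CXCL16 for line (-0.05) and the CXCL12 interaction (0.03). The filter on all arrays gives no value for CCL8 A_72_P441594. No paired analysis was possible because the labels give every array the same replicate number. At intensities near background, as for CCL8, the size of a fold change depends on the background correction.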
